A study of Mus musculus with 2 samples.

Results

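The genes described here are 8 primary granule genes, Mpo, Elane, Prtn3, Ctsg, Ms4a3, Prss57, Ctsc and Cst7, taken by symbol from a fixed list, and all 8 were found among the 32285 features of both matrices. Primary (azurophil) granules are the first granules that a developing neutrophil makes, and the messages for their contents are made at the promyelocyte stage, before the genes of the secondary granules are switched on. Mpo encodes myeloperoxidase, which makes hypochlorous acid. Elane, Prtn3, Ctsg and Prss57 encode the neutrophil serine proteases elastase, proteinase 3, cathepsin G and NSP4. Ctsc encodes cathepsin C, the enzyme that activates those proteases by removing a dipeptide, Cst7 encodes cystatin F, an inhibitor of cathepsin C, and Ms4a3 encodes a membrane protein of granulocyte-monocyte progenitors.

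Marrow came from C57BL/6 mice, female and 10 weeks old, with no transgene or deletion named in the labels. It was grown for 4 days with the cytokines IL-6 and GM-CSF (both 50 ng/mL), which yields myeloid-derived suppressor cells (MDSC), a mixed culture of immature granulocytes and monocytes. The DAB culture also held 1.5 µM dabrafenib, a BRAF kinase inhibitor, and the DMSO culture held the matching volume of its solvent. Each condition was 1 library of 10x 5′ single-cell RNA, and the sources used here do not give the number of mice behind it. With 1 library per condition no test between conditions was possible, and the treatment cannot be told apart from any other difference between the 2 libraries.

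After filtering, 9032 DMSO cells with 92128121 UMIs (unique molecular identifiers, each standing for 1 captured transcript) and 10476 DAB cells with 139738755 UMIs remained, and the median cell held 7480 and 9383.5 UMIs. The libraries shared 152 barcode sequences. Levels are in CPM, the UMIs of a gene per 1000000 UMIs of the summed cells, with exact Poisson 95% intervals, and differences are log2 ratios of DAB over DMSO with exact conditional binomial 95% intervals. A gene was called lower or higher in DAB where its log2 ratio was 0.5 or more in size. The intervals and the floors given for counts of 0 cover counting error only, and cover neither the differences between cells nor those between cultures.

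Prss57, Prtn3 and Elane lie on chromosome 10 of GRCm38, at 79781474-79790961 on the minus strand, and at 79874476-79883174 and 79886247-79888215 on the plus strand (GENCODE vM21). Prtn3 and Elane are neighbours 3072 bases apart, and Cfd, the complement factor D gene, follows Elane after 2637 bases. Ctsg lies on chromosome 14 at 56099881-56102574, with the basophil protease gene Mcpt8 14607 bases away, and Mpo on chromosome 11 at 87793581-87804413. Ms4a3 lies on chromosome 19 at 11629496-11640851, Cst7 on chromosome 2 at 150570415-150578944 and Ctsc on chromosome 7 at 88278085-88310888. Promoter sequences were found in RefSeq for 7 of the 8 genes. Stretches of 4 of them are printed, for the genes on which the comparison between libraries turns: Elane and Prtn3 are neighbours, Ctsg went the other way, and Mpo was held by the fewest cells. Each is read 5′ to 3′ on the gene's strand of GRCm38.p6, within the 250 bases before the RefSeq start and cut where an annotated exon begins, with at most 20 exonic bases kept. Capitals mark the letters AGGAAGT (the PU.1 and other ETS factors' core), AACGG (MYB) and TGTGGT (RUNX), on either strand.

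Elane, chr10:79886062-79886266, plus strand: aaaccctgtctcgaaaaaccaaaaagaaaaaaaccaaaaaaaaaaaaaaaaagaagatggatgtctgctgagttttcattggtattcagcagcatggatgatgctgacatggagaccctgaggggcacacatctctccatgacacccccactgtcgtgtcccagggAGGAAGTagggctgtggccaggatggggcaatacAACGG
Prtn3, chr10:79879417-79879633, plus strand: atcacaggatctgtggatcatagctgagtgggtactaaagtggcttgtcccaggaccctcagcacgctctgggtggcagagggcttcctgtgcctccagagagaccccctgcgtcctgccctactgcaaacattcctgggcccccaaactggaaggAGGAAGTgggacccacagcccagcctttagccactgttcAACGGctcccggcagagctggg
Ctsg, chr14:56102575-56102824, minus strand: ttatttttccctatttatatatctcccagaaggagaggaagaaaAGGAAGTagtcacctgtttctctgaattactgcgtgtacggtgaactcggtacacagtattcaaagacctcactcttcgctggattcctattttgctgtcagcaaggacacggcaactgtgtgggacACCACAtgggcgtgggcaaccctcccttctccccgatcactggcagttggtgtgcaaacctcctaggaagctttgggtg
Mpo, chr11:87793534-87793600, plus strand: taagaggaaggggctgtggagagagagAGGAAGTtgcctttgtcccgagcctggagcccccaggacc

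AGGAAGT was present in 6 of the 7 promoters (Cst7, Ctsc, Ctsg, Elane, Mpo and Prtn3) and in 7.69% of all 32851 RefSeq mouse promoters of that length. Elane held it 84 bases before the RefSeq start with AACGG at 50, and Prtn3 held it at 94 with AACGG at 55. Both letters thus stood in the same order and at like distances in these neighbours. The AACGG of Elane lies past the GENCODE gene start (79886247), within the 20 exonic bases kept. The whole Prtn3 stretch lies within the GENCODE span of that gene (79874476-79883174), past its gene start, and holds 20 exonic bases too. AACGG was in 2 of the 7 promoters against 14.5% of all, TGTGGT was in 2 (Cst7 and Ctsg) against 14.0%, and the C/EBP letters TTGCNNAA were in 0 against 9.56%. The 4 motifs were settled after these promoters had been read, so the counts are a description.

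Over all cells, 4 of the 8 genes were lower in DAB by the size read as a direction, 1 was higher and 3 lay between. Among the 13311 genes with at least 100 UMIs, 16.1% were lower and 14.1% higher by the same size. The median log2 ratio of the 8 genes was -0.39, beside -0.01 over all those genes. The genes did not move as a group: cathepsin C, proteinase 3, elastase and myeloperoxidase were lower, cathepsin G was higher, and Ms4a3 and Cst7 were level.

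Ctsc had 323 CPM (319 to 326) in DMSO and 178 CPM (176 to 180) in DAB, a log2 ratio of -0.86 (-0.88 to -0.83). Prtn3 had 212 CPM in DMSO and 119 CPM in DAB (log2 ratio -0.83, -0.86 to -0.80). Elane had 98.3 CPM and 55.2 CPM (log2 ratio -0.83, -0.88 to -0.79). Elane, Prtn3 and Ctsc thus showed differences of like size over all cells. Weighted by the DMSO cells of each cluster, as below, they were less alike, at -0.27, -0.49 and -0.82. Mpo was at 12.8 CPM in DMSO and 7.79 CPM in DAB (log2 ratio -0.71, -0.83 to -0.59). Ctsg stood at 22.3 CPM in DMSO and 43.0 CPM in DAB, a log2 ratio of 0.95 (0.87 to 1.02). Ctsg was the gene of the list with a level higher in DAB by the size read as a direction. Prss57 was at 5.75 CPM and 7.98 CPM (log2 ratio 0.47, 0.32 to 0.62), just under that size. Ms4a3 was at 28.1 CPM and 28.5 CPM (log2 ratio 0.02, -0.05 to 0.09). Cst7, the cathepsin C inhibitor, was at 63.6 CPM and 60.5 CPM (log2 ratio -0.07, -0.12 to -0.03).

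Per cell the contrast was smaller, and the DAB cells held more UMIs. Mpo, Elane, Prtn3, Ctsg, Ms4a3 and Prss57, 6 genes known from granulocyte precursors and treated together below, gave 3.87 UMIs per DMSO cell and 3.49 UMIs per DAB cell. Their summed levels were 380 CPM and 262 CPM. Cst7 went from 0.649 to 0.807 UMIs per cell while its CPM was slightly lower.

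**Figure D1:**
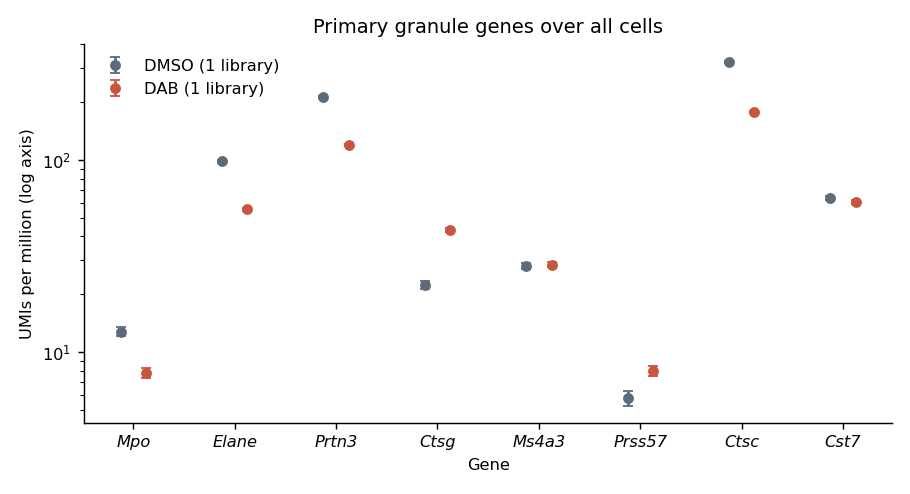
Level of each gene over all cells in CPM (log axis), with the DMSO library in grey and the DAB library in red; points are 1 library each and bars are exact 95% Poisson intervals. Ctsc, Prtn3, Elane and Mpo sit lower in DAB, Ctsg sits higher (22.3 against 43.0), and the Ms4a3 points are level.

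The UMIs of these genes were held by very few cells. Counted from the highest cell down, 50% of all Mpo UMIs in DMSO came from 7 cells and 50% of the Elane UMIs from 20 cells of 9032. In DAB these were 4 and 19 cells of 10476. The highest Mpo cell alone held 136 of 1178 UMIs in DMSO and 177 of 1089 in DAB. Ctsg needed 19 cells in DMSO and 37 in DAB to reach 50%, and Prtn3 168 and 94. Ctsc lay at the other end, with 945 and 1313 cells, and Cst7 needed 634 and 683. Mpo, Elane and Ctsg were thus concentrated in rare cells, and the lysosomal Ctsc and Cst7 were spread through the culture. The intervals above do not cover this concentration.

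**Figure D2:**
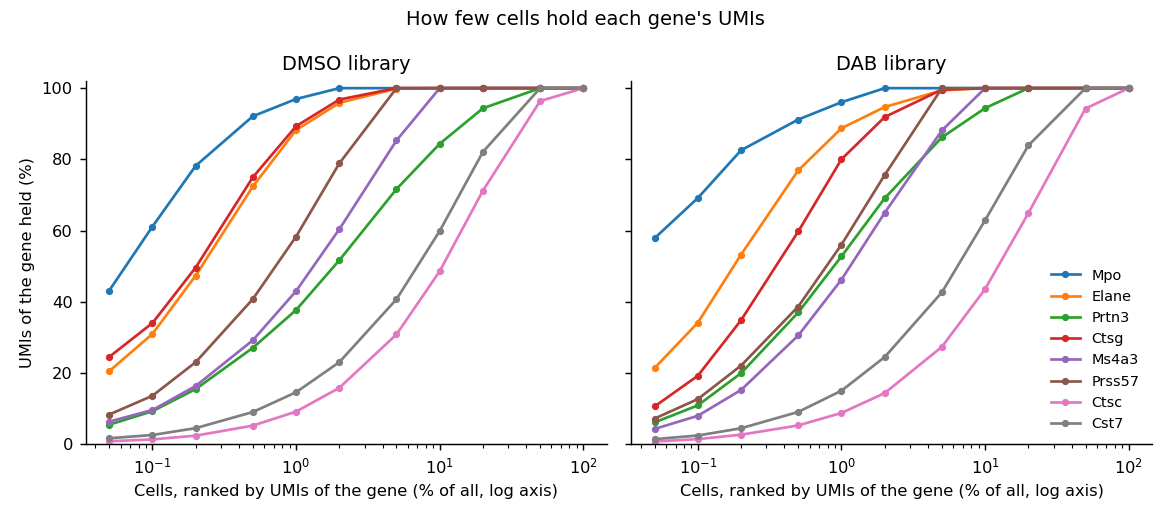
Share of a gene's UMIs (vertical, %) held by the cells ranked highest for it (horizontal, % of all cells, log axis), by library. The 90 highest DMSO cells (1%) held 96.9% of the Mpo UMIs and 88.2% of the Elane UMIs, but 9.13% of the Ctsc UMIs.

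Each cell was thinned to 1500 UMIs so that the libraries could be compared at 1 depth, which left out 436 DMSO and 292 DAB cells. At least 3 of the 8 genes were then held by 154 of 8596 DMSO cells (1.79%, exact interval 1.52 to 2.09%). In DAB this was true of 129 of 10184 cells (1.27%, 1.06 to 1.50%). Without thinning the shares were 17.2% and 15.3%. B cell-like cells were used as background and taken to lack the 6 precursor genes. They did not lack all 8 genes, since Ctsc was in 13 of 128 such cells in DMSO and 26 of 173 in DAB. None of these cells held at least 3 of the 8 genes, which allows shares of up to 2.34% and 1.73%. Both shares lie under those limits, so these background cells were too few to bound them. The median B cell-like cell held 3958 UMIs in DMSO and 4867 in DAB before thinning. Cells with at least 10 UMIs of the 6 precursor genes among 1500 numbered 63 in DMSO (0.733%, 0.564 to 0.937%) and 39 in DAB (0.383%, 0.272 to 0.523%). Those few cells held 84.6% of the Mpo UMIs and 70.4% of the Elane UMIs in DMSO, and 74.1% and 57.4% in DAB. These parts rest on different numbers of cells. At equal shares of cells, the highest 0.5% held 72.4% of the Elane UMIs in DMSO and 76.9% in DAB, and the highest 0.1% held 61.1% and 69.1% of the Mpo UMIs. At cuts of 5 and 20 UMIs the intervals of the shares of rich cells overlapped between the libraries, at 1.43% (1.19 to 1.70%) and 1.13% (0.933 to 1.35%) for 5 and at 0.209% (0.124 to 0.331%) and 0.108% (0.0539 to 0.193%) for 20.

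Single genes differed in how many cells carried them. After thinning Prtn3 was found in 11.7% (11.0 to 12.4%) in DMSO and 5.50% (5.06 to 5.96%) in DAB, against 1.56% and 0% of B cell-like cells. Unthinned, Prtn3 was in 32.2% and 18.9% of cells. Ctsg was in 1.11% (0.895 to 1.35%) in DMSO and 1.68% (1.44 to 1.95%) in DAB. B cell-like cells had it in 0 of 128, which allows up to 2.34%, and in 1 of 173 (0.578%, 0.0146 to 3.18%), so neither Ctsg share is read above background. Elane was in 2.32% and 1.97% (1.71 to 2.26%) of cells, shares whose intervals overlapped. B cell-like cells had it in 2.34% (3 of 128) in DMSO and 0 of 173 in DAB, which allows up to 1.73%. The Elane share over all cells is therefore not read above background in either library.

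Serine protease genes often shared cells. Of the 199 thinned DMSO cells with Elane, 128 (64.3%) also held Prtn3, against 10.5% of cells without Elane. In DAB, 110 of 201 (54.7%) did so, against 4.51%. Ctsg was in 16.1% of the Elane cells of DMSO and 23.9% of those of DAB. Of the cells with Mpo, 54.2% (26 of 48) in DMSO and 48.6% (18 of 37) in DAB also held Ctsg. Ctsc did not follow this pattern, being in 15.1% of DMSO cells with Elane and 28.0% of those without.

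The cells were clustered with the 8 genes left out, so that their levels were not fixed by the clustering, and 23 clusters resulted, lettered A to W by size. Clusters were named from fixed marker lists, 11 took a name, and the rest did not meet the naming rule. No cluster met the rule for a granulocyte progenitor-like class. The marker list of that class leaves out the 8 genes, which therefore could not count toward its name. Cluster I, named here by its leading gene, was led by Elane, Prtn3, Ctsg, Myl10 and Mpo, and raised 2 of the 10 granulocyte progenitor markers. Because Elane picked it out, its high levels against other clusters are a description. It held 389 DMSO cells (4.31%, 3.90 to 4.75%) and 399 DAB cells (3.81%, 3.45 to 4.19%), and these intervals overlapped. The share depended on the clustering, and 3 of the other clusterings made without the 8 genes had no cluster led by Elane. Over the 11 of 14 clusterings that had one, Elane in it had log2 ratios from -1.75 to -0.69 and Ctsg from 0.57 to 1.18. Prtn3 ran from -1.06 to -0.35 and Mpo from -1.07 to -0.07, so whether these 2 were called lower depended on the clustering.

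Cluster I held 45.9% of all UMIs of the 6 genes in DMSO and 44.1% in DAB. Elane there was at 800 CPM (779 to 822) in DMSO and 282 CPM (272 to 292) in DAB, a log2 ratio of -1.50. Prtn3 was at 1236 CPM and 683 CPM (log2 ratio -0.86). Ctsg was at 139 CPM and 281 CPM (log2 ratio 1.02). Elane and Ctsg thus differed in direction within the same cluster. Mpo was at 97.5 CPM and 81.0 CPM (log2 ratio -0.27). Ctsc was at 300 CPM and 120 CPM (log2 ratio -1.32), and Cst7 at 141 CPM and 95.1 CPM (log2 ratio -0.57). Ms4a3 and Prss57 lay between the sizes read as directions, with log2 ratios of -0.32 and 0.33. Of the 8 genes 4 were lower and 1 higher in cluster I, where 19.2% of 9081 genes were lower and 17.1% higher.

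The cells of cluster I were not alike. Elane had a UMI in 147 of 389 DMSO cells and 137 of 399 DAB cells, and its highest cell held 439 and 450 UMIs. Ctsg had a UMI in 98 DMSO cells and 183 DAB cells. After thinning, Ctsg was in 9.92% (7.08 to 13.4%) and 15.9% (12.5 to 19.9%) of the cells of the cluster, and Elane in 20.4% (16.4 to 24.8%) and 12.9% (9.77 to 16.6%). The median cell of the cluster held 17156 UMIs in DMSO and 26603 in DAB. In UMIs per cell the 6 genes gave 41.3 and 40.4, near level. A set of 6 proliferation genes (Mki67, Top2a, Cdk1, Ccnb1, Birc5 and Ccna2) summed to 793 CPM and 511 CPM in cluster I, and their part in the differences was not tested.

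**Figure D3:**
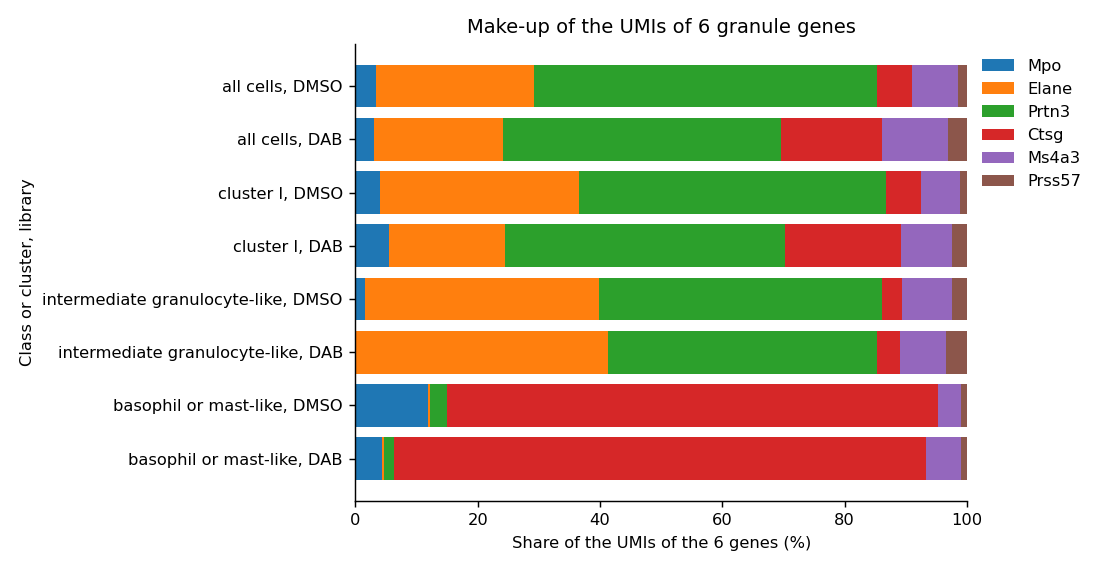
Share of the UMIs of the 6 granule genes (horizontal, %) taken by each gene, by class or cluster and library. Ctsg took 5.66% of these UMIs in cluster I of DMSO and 18.9% in DAB, and 80.2% and 87.1% in basophil or mast-like cells.

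Within the UMIs of the 6 genes, Ctsg took 5.88% (5.64 to 6.13%) over all DMSO cells and 16.4% (16.1 to 16.8%) over all DAB cells. Prtn3 took 56.0% and 45.6%, and Elane 25.9% and 21.1%. In cluster I Elane took 32.5% in DMSO and 18.9% in DAB. These shares compare the libraries and not the genes, since 5′ capture can differ between transcripts.

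Intermediate granulocyte-like cells (cluster G), led by the secondary granule genes Camp, Ngp and Ltf, made up 8.64% of the DMSO library and 2.97% of the DAB library. They held 17.9% and 13.8% of the UMIs of the 6 genes. Elane in them was at 392 CPM (377 to 408) in DMSO and 488 CPM (467 to 509) in DAB, a log2 ratio of 0.31. Prtn3 was at 474 CPM and 520 CPM (log2 ratio 0.13). Neither gene was lower there, in contrast to cluster I. Ctsc was at 42.4 CPM in DMSO and 85.0 CPM in DAB (log2 ratio 1.003, 0.77 to 1.24), and Prss57 at 25.9 CPM and 41.3 CPM (log2 ratio 0.68, 0.36 to 0.995). Mpo had 99 UMIs in DMSO and 8 in DAB (log2 ratio -3.11), but 60 of those 99 were in 1 cell. Of the 8 genes 1 was lower and 2 were higher in this class, Ctsc included, where 13.7% of 6748 genes were lower and 26.6% higher. Ctsc was under its B cell-like levels of 88.5 CPM in DMSO and 101 CPM in DAB, so it is not read above background here. In DMSO the Elane UMIs came from 86 of 780 cells, the highest with 433, and in DAB from 58 of 311 cells, the highest with 472.

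Because the classes took different shares of the libraries, the DAB levels were also weighted by the DMSO cells of each cluster. Elane was then 81.6 CPM in DAB beside 98.3 CPM in DMSO (log2 ratio -0.27), and Prtn3 was 151 CPM beside 212 CPM (log2 ratio -0.49). Neither then passed the size read as a direction. Ctsc (log2 ratio -0.82), Mpo (-0.63) and Ctsg (0.96) did, and so did Prss57 (0.76). Ms4a3 and Cst7 stayed between, at 0.19 and -0.24.

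**Figure D4:**
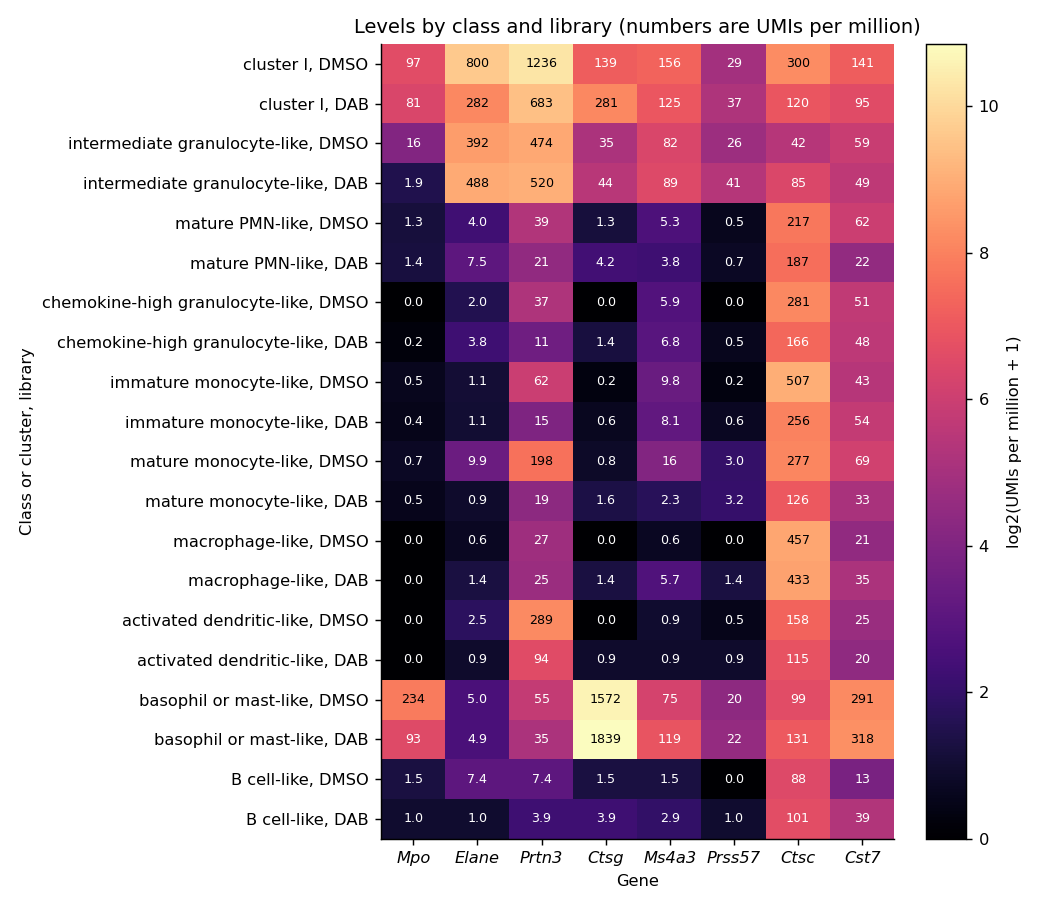
Level of each gene in CPM, printed in the cells and coloured on a log2 scale, by class or cluster and library. The first 4 columns are high in cluster I, Ctsg is highest in basophil or mast-like cells (1572 and 1839), and Ctsc is high in immature monocyte-like and macrophage-like cells.

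Basophil or mast-like cells, named from all 7 of their markers, were 52 DMSO and 83 DAB cells and had their own set of granule genes. Ctsg was at 1572 CPM (1451 to 1699) in DMSO and 1839 CPM (1747 to 1935) in DAB (log2 ratio 0.23), above its level in every other named class and in cluster I. It had a UMI in 37 of the 52 DMSO cells and 58 of the 83 DAB cells. These few cells held 30.7% of all Ctsg UMIs in DMSO and 24.7% in DAB. Mpo was at 234 CPM (189 to 286) and 92.7 CPM (72.9 to 116), a log2 ratio of -1.33, and Cst7 at 291 CPM and 318 CPM (log2 ratio 0.13). Elane had 2 and 4 UMIs there. The contrast in Elane with cluster I, which Elane picked out, is a description. Ctsg and Mpo with little Elane thus described these cells. Ms4a3 was at 74.6 CPM and 119 CPM (log2 ratio 0.67, 0.06 to 1.31), and 31 of its 96 DAB UMIs were in 1 cell. Mcpt8, the basophil gene beside Ctsg, was at 5396 CPM and 3724 CPM in this class and at 0.765 CPM and 2.59 CPM in cluster I. Of the 5 genes with at least 100 UMIs in the class, 1 was lower and 1 higher, beside 15% and 17.6% of 1731 genes.

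Monocyte-like cells carried Prtn3 with little of the other serine protease genes. In mature monocyte-like cells, led by MHC class II genes, Prtn3 was at 198 CPM (190 to 207) in DMSO and 19.1 CPM (17.2 to 21.1) in DAB, a log2 ratio of -3.38. It had a UMI in 294 of 522 DMSO cells and 122 of 699 DAB cells, and the highest cell held 4.87% and 13.01% of its UMIs. Ms4a3 was at 15.8 CPM and 2.29 CPM (log2 ratio -2.79), with 23 of its 47 DAB UMIs in 1 cell, and Elane at 9.94 CPM and 0.876 CPM (log2 ratio -3.51), where 46.1% of the DMSO UMIs of Elane were in 1 cell. Ctsc (277 CPM and 126 CPM, log2 ratio -1.13) and Cst7 (68.6 CPM and 33.1 CPM, log2 ratio -1.05) were lower too. The B cell-like levels of Elane were 7.37 CPM (2.39 to 17.2) and 0.963 CPM, so Elane is not read above background here. The DAB levels of Ms4a3 and Cst7 were under their B cell-like levels of 2.89 CPM and 38.5 CPM. Mpo (7 and 10 UMIs), Ctsg (8 and 33) and Prss57 (31 and 66) were under 100 UMIs in this class and were not called. Of the 33 DAB UMIs of Ctsg, 18 were in 1 cell. The median cell of the class held 19098.5 UMIs in DMSO and 29256 in DAB. All 5 genes of the list with at least 100 UMIs in this class, Elane included, passed the size of a lower call, beside 19.2% of 9804 genes lower and 16.6% higher. In immature monocyte-like cells, led by Mmp12, Slc7a2 and Lpl, Prtn3 was at 61.6 CPM and 14.8 CPM (log2 ratio -2.06) and Ctsc at 507 CPM and 256 CPM (log2 ratio -0.98). There 2 of 4 such genes were lower and 0 higher, beside 16.7% and 13.7% of 10624 genes. In activated dendritic-like cells, Prtn3 was at 289 CPM (273 to 305) and 93.9 CPM (81.7 to 107), with 11 and 2 UMIs of Elane and 0 of Mpo in either library. A count of 0 allows up to 0.683 CPM and 1.32 CPM there. Prtn3 was the 1 lower of 3 genes, beside 18.6% of 6080 genes lower and 9.42% higher.

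Among the named classes, Ctsc in DMSO was at 507 CPM (498 to 516) in immature monocyte-like cells and 457 CPM (425 to 491) in macrophage-like cells, followed by chemokine-high granulocyte-like (281 CPM, 255 to 309) and mature monocyte-like cells (277 CPM, 267 to 287), whose intervals overlapped. Cluster I (286 to 313) overlapped the chemokine-high class too. In DAB macrophage-like cells came first among the named classes at 433 CPM (405 to 462), overlapping their DMSO interval. Cst7 in mature PMN-like cells was at 62.4 CPM (54.6 to 70.8) and 21.6 CPM (17.9 to 25.7), a log2 ratio of -1.53. Its B cell-like level was 13.3 CPM in DMSO and 38.5 CPM in DAB, so its DAB level is not read above background. Whether B cell-like cells made Cst7 themselves was not tested. Prtn3 in mature PMN-like cells was at 39.1 CPM and 21.2 CPM (log2 ratio -0.88). In that class 2 of 3 genes were lower, beside 9.35% of 7593 genes lower and 18% higher. Elane in mature PMN-like cells was at 3.96 CPM and 7.47 CPM, beside a B cell-like level of 7.37 CPM (2.39 to 17.2) in DMSO and 0.963 CPM (0.0244 to 5.37) in DAB, so it was at background in DMSO.

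The order of levels by class differed from gene to gene. Elane in DMSO was highest in cluster I (800 CPM) and then in intermediate granulocyte-like cells (392 CPM). The unnamed clusters J (189 CPM), M (174 CPM) and H (88.2 CPM) came next. In these clusters the highest cell held 44.1%, 38.4% and 39.6% of the Elane UMIs. Every other named class was at 14.5 CPM or less. Intervals overlapped for the next named classes, T or NK cell-like (0.367 to 80.7, 1 UMI) and mature monocyte-like (8.11 to 12.1). In DAB cluster I and intermediate granulocyte-like cells changed places, at 282 CPM and 488 CPM. The unnamed cluster K followed there at 171 CPM. Prss57 did not separate cluster I (29.4 CPM, 25.4 to 33.8), intermediate granulocyte-like cells (25.9 CPM, 22.0 to 30.2) and basophil or mast-like cells (19.9 CPM, 8.59 to 39.2) in DMSO. Ms4a3 in DAB had overlapping intervals in cluster I (125 CPM, 119 to 132) and basophil or mast-like cells (119 CPM, 96.1 to 145). In the latter, 31 of its 96 UMIs were in 1 cell.

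**Figure D5:**
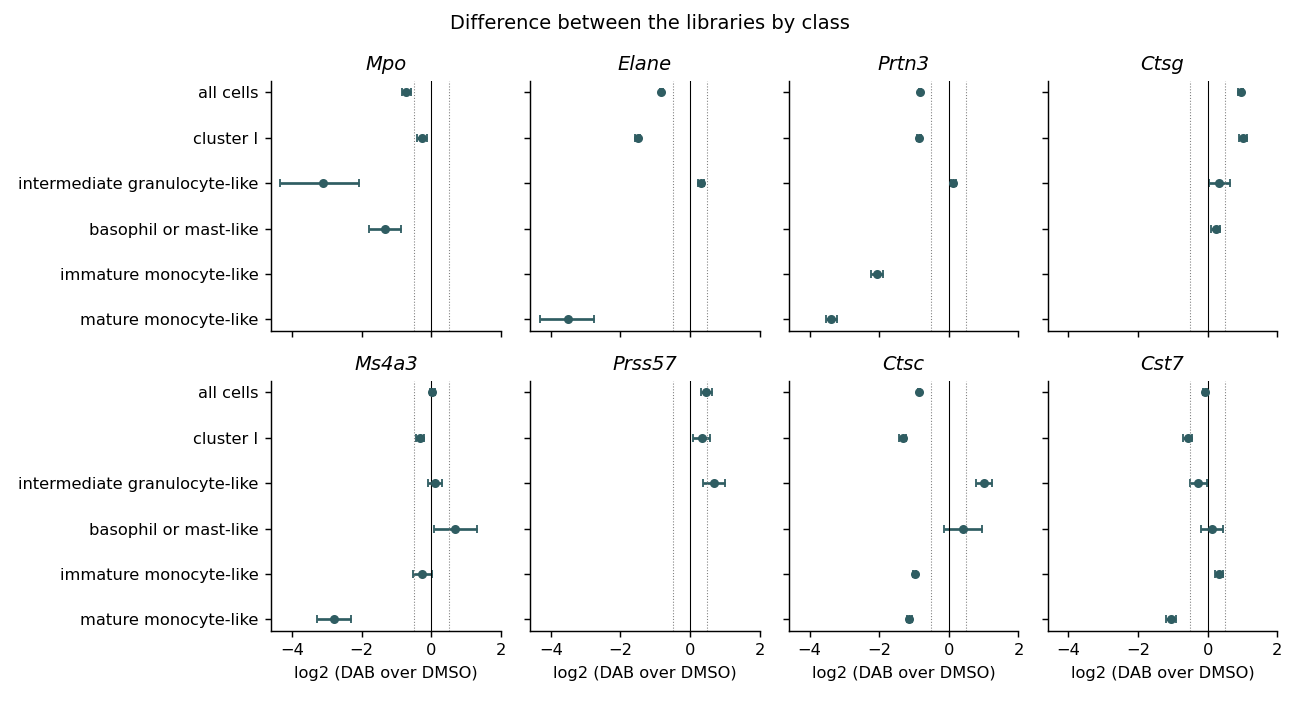
Log2 ratio of DAB over DMSO (horizontal) for each gene, in all cells and by class or cluster, with exact 95% intervals; dotted lines mark 0.5 in size, and a class is left out where a gene had under 100 UMIs. Prtn3 lies at -3.38 in mature monocyte-like cells and at 0.13 in intermediate granulocyte-like cells.

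Counted over clusters with at least 30 cells in each library and 100 UMIs of the gene, Prtn3 was lower in 13 of 16 and higher in 1, and Ctsc was lower in 14 of 22 and higher in 1. Cst7 was lower in 6 of 21 and higher in 2. Ctsg was higher in 4 of 7 and lower in 1. Elane was lower in 5 of 8 and higher in 2, and Ms4a3 was lower in 1 of 11 and higher in 4. Mpo was lower in 4 of 5 and higher in 0, and Prss57 was lower in 0 of 4 and higher in 1. Single cells weigh on some of these counts, and shares of all genes were not taken for every cluster. In cluster N, higher for Elane, 266 of the 284 DAB UMIs were in 1 cell. For Mpo, 136 of 142 DMSO UMIs in cluster J and 60 of 99 in cluster G were in 1 cell each. The lower count of Elane includes mature monocyte-like cells, and the higher count of Ctsc is cluster G, neither read above background. The cluster in which Prtn3 was higher was cluster K, unnamed and led by Chil3, Gal, S100a9 and S100a8. Elane there was at 7.18 CPM in DMSO and 171 CPM in DAB, with a UMI in 13 of 403 and 31 of 280 cells. Ctsg had 4 UMIs in 2 cells in DMSO and 263 UMIs in 25 cells in DAB. Cluster K was singled out after its values were seen, and whether the same kind of cell was gathered in it from both libraries was not tested.

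Over the 44 points of cluster and library with at least 30 cells, log2(CPM + 10) of Ms4a3 and Prss57 correlated at 0.91, that of Mpo and Ctsg at 0.87 and that of Elane and Prtn3 at 0.84. Mpo and Elane correlated at 0.54. Ctsc correlated with none of the others above 0.02 in Pearson's r. These points share 2 libraries, so the values are a description. Beyond the list, the genes most like the mean of the 6 genes over the same points were Dipk1b (r = 0.87), Myl10 (0.86), Ndrg2 (0.85), Plppr3 (0.83), Poc1a, Arhgef39, Sgo1, Reep6, Hist1h3g and Lbp (0.81). Sgo1 (shugoshin) is a mitotic gene. Reep6 was at 3.72 CPM in DMSO and 14.7 CPM in DAB (log2 ratio 1.98), and Arhgef39 at 9.06 CPM and 4.12 CPM (log2 ratio -1.14).

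The wider granule machinery was described over all cells in 5 fixed lists. Of 15 other azurophil granule and lysosome genes, 13 had at least 100 UMIs, of which 2 were lower, 2 higher and 9 between, with a median log2 ratio of 0.17. Over all genes 16.1% were lower and 14.1% higher, so these counts, and those of the transcription factors below, were near the share over all genes. Fcnb, the ficolin of early granulocytes, was at 21.8 CPM and 6.01 CPM (log2 ratio -1.86). Gusb, beta-glucuronidase, was at 46.3 CPM and 87.9 CPM (log2 ratio 0.92), and Cd63, a granule membrane tetraspanin, at 382 CPM and 543 CPM (log2 ratio 0.51). None of the 8 processing and storage genes, among them the proteoglycan gene Srgn and the chaperone gene Calr, moved by that size (median 0.21).

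Of the 8 protease inhibitor genes 3 were higher and 0 lower (median 0.47), beside 14.1% and 16.1% of all genes. Stfa1 and Stfa2, stefins that inhibit cysteine cathepsins, were at 56.8 CPM and 284 CPM (log2 ratio 2.32) and at 115 CPM and 639 CPM (log2 ratio 2.47). Slpi, the secreted inhibitor of elastase and cathepsin G, was at 688 CPM and 1700 CPM (log2 ratio 1.31). Serpinb1a, an inhibitor of neutrophil serine proteases, was at 56.5 CPM and 77.6 CPM (log2 ratio 0.46).

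Of 11 transcription factor genes of the promyelocyte and its neighbours 2 were lower, 2 higher and 7 between (median 0.11). Irf8 and Klf4, factors of the monocyte line, were at 52.7 CPM and 24.7 CPM (log2 ratio -1.09) and at 11.3 CPM and 4.47 CPM (log2 ratio -1.34). Myb, a factor of progenitors, was at 3.95 CPM and 10.8 CPM (log2 ratio 1.45), and Cebpe, a factor of granule gene expression, at 45.4 CPM and 77.4 CPM (log2 ratio 0.77). Spi1, which encodes PU.1, was at 298 CPM and 409 CPM (log2 ratio 0.46). Of 6 granule proteases of other cells and neighbouring genes, 2 (Mcpt8 and Prss34) had at least 100 UMIs, and both lay between. Cfd, the neighbour of Elane, had 1 UMI in DMSO and 0 in DAB.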

How the data were processed

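The UMI counts of 2 libraries of 10x 5′ (v2) single-cell RNA were used as the authors deposited them: whole-number counts per gene and barcode, made with Cell Ranger 7.0.0 on mm10 (the submitters' notes also name Seurat 4.3.0 and R 4.1.2), with barcodes of at least 500 UMIs. Barcodes over 10% mitochondrial UMIs or over 4 median absolute deviations out were dropped, then simulated-doublet scores removed 768 DMSO and 1066 DAB barcodes (0.8% per 1000). This left 92128121 and 139738755 UMIs. Pearson residuals (theta 100) of 3000 variable genes, the 8 genes left out, with cell cycle and mitochondrial share regressed out, gave 40 components, aligned by mutual nearest neighbours (20) and clustered by Leiden at 0.9 (leidenalg 0.10.2, numpy 2.4.6, scipy 1.17.1). A cluster took a name when it raised at least 3, and most, of the markers of that type that had at least 100 UMIs. It also had to have more of its own than of any other type's markers among its 10 leading genes.

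Counts were summed by library and class. With 1 library per condition no test was made, and intervals (Poisson, conditional binomial, Clopper-Pearson, 95%) cover counting error only. The named genes are the 8 genes, 5 lists, and the 10 genes most like 6 of the 8 by correlation over clusters. The 8 genes and the lists were chosen with earlier results of these data known, and the motifs after the promoters had been read. No cluster met the rule for granulocyte progenitor-like cells. A looser form of the rule was tried after the clusters had been seen, under which earlier numerical versions of the clustering gave such a class, and the stricter form was then restored. Cluster I was taken up, as led by Elane, after the data had been seen. The counting scripts were tested on simulated data. Prss57 has no promoter sequence here. Gene positions are from GENCODE vM21 and promoters from RefSeq, GRCm38.p6. The values of 1 gene of the lists are not reported here.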

Additional observations from a re-analysis of the deposited data

Results flagged for a closer look

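Each of 3 genes had log2 ratios of DAB over DMSO of opposite sign in a pair of classes. Ms4a3 was at -2.79 in mature monocyte-like cells and 0.67 in basophil or mast-like cells. Ctsc was at -1.32 in cluster I, led by Elane, and 1.003 in intermediate granulocyte-like cells. Cst7 was at -1.53 in mature PMN-like cells and 0.71 in macrophage-like cells. With 1 library per condition these differences between classes were not tested. In DAB, 23 of the 47 Ms4a3 UMIs of mature monocyte-like cells and 31 of the 96 of basophil or mast-like cells were in 1 cell, and Cst7 in macrophage-like cells had 35 and 73 UMIs. Beside these stand the B cell-like levels, used as background. For Ms4a3 in DAB this level was 2.89 CPM, against 2.29 CPM in mature monocyte-like cells. For Cst7 it was 13.3 CPM in DMSO and 38.5 CPM in DAB, and whether B cell-like cells made Cst7 themselves was not tested. Cst7 stood at 21.3 CPM and 34.7 CPM in macrophage-like cells and at 62.4 CPM and 21.6 CPM in mature PMN-like cells. For Ctsc the B cell-like level was 88.5 CPM (67.5 to 114) in DMSO and 101 CPM (82.7 to 122) in DAB. Ctsc in intermediate granulocyte-like cells was under this level in both libraries, so it is not read above background there. In cluster I the DAB interval of Ctsc (113 to 127) overlapped that of B cell-like cells. Whether B cell-like cells made Ctsc themselves was not tested.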

How the results depend on the processing

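Of the values recomputed under other settings, 18 kept their value within the counting interval or within 1.5 times a count, and 22 moved. The median log2 ratio of the 8 genes (-0.39) was -0.49 as a mean over cells, -0.25 when standardized to the DMSO classes and -0.15 without cluster I, a setting chosen after seeing the data. Standardized, 2 genes were lower and 2 higher, and at a log2 ratio of at least 1 these counts were 0 and 0. Without cluster I Elane was at -0.30 and Mpo at -1.94, and as a mean over cells Prss57 was at -0.09. Of the 541 DMSO UMIs of Mpo outside cluster I, 136, 88 and 60 were in 1 cell each of clusters J, H and G. The log2 ratio of the share of the Elane-led cluster was -0.18 (-0.38 to 0.03) for cluster I and changed with the clustering, which gave other sets of cells. Its sign was opposite in 3 of the clusterings below. With the 8 genes among the variable genes it was 0.10, at Leiden 0.5 -0.69, at 1.5 -0.65, without cell cycle regression -0.54, without doublet removal -0.60, without the mitochondrial filter 0.20 and without alignment 0.055. The values from -0.69 to -0.54 came from clusters of 154 to 175 DMSO and 111 to 136 DAB cells, with intervals clear of 0. These clusters raised 5 or 6 markers of the type they matched best. The 3 positive values came from clusters of 314 to 375 DMSO and 388 to 502 DAB cells that raised 2. Of these, 0.20 (0.008 to 0.40) was clear of 0 too. The cause was not tested. Without the 8 genes, no cluster was led by Elane at Leiden 0.5 or 1.5 or without cell cycle regression. In the other such clusterings the log2 ratio of the share was -0.12 without the mitochondrial filter and -0.016 without doublet removal. Without alignment it was -0.34 (-0.54 to -0.13), also clear of 0. The shares of cells with at least 3 genes (1.79% and 1.27%) were 17.2% and 15.3% without thinning, 5.08% and 3.12% at 3000 UMIs and, for at least 5 genes, 0.233% and 0.177%. The shares of all genes lower and higher (16.1% and 14.1%) were 19.2% and 16.0% at a minimum of 20 UMIs. The results planned for granulocyte progenitor-like cells could not be given, since none of 14 clusterings held a cluster that met the naming rule. With the 8 genes among the variable genes, a cluster best matched to this type raised 6 of its 10 markers at Leiden 0.5. The same was true without cell cycle regression. These clusters failed on the leading genes, where the 8 genes could take places but did not count as markers. No paired analysis was possible because each condition had 1 library. Depth limits Prss57 and Mpo most.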
